A study of Mus musculus with 8 samples.

Results

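The baseline expression of wild-type cells sorted from mouse bone marrow was described from 4 RNA-seq libraries, out of 8 in the series. The 4 were chosen by their column name, which holds WT, and not by any measured value. The other 4 libraries, from TOX knockout mice, were not used. Each value was an FPKM, that is, fragments divided by gene length and by the reads mapped in the library, as the authors deposited it. FPKM is a level per length, so genes can be ranked within a library.

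The labels give the genotype (wild type), the species and the source, sorted marrow cell populations. They state no strain, age, sex, treatment or surface phenotype, nor that each library came from its own mouse. Values of spread below therefore measure differences between these libraries, part of which may be technical. The series title concerns the dependence of an innate lymphoid cell (ILC) progenitor on TOX. The libraries are called 10, 11, 16 and 29 after their column names, and all series of 4 values below follow that order. The column names also carry barcode numbers in 2 sets, the lower for libraries 10 and 16 and the higher for libraries 11 and 29.

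ILCs are lymphocytes that make cytokines or kill without an antigen receptor of their own; the family takes in NK cells, lymphoid tissue inducer cells and the ILC1, ILC2 and ILC3 groups. They descend from interleukin 7 receptor-positive lymphoid progenitors of the marrow. On the way, Id2, a protein that binds E proteins and keeps them off DNA, comes on together with the HMG-box proteins TCF-1 (encoded by Tcf7) and TOX, the zinc finger factor GATA3 and, in many precursors, PLZF (encoded by Zbtb16). RORα (Rora) and GATA3 then mark the ILC2 path, and T-bet and Eomes the ILC1 and NK path.

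The 4 libraries were alike in summed FPKM and in genes reaching 1 FPKM, but each stood apart in some gene lists. Summed FPKM ran from 296777 to 365906, and 10385 to 10436 genes reached an FPKM of 1 in each. Spearman correlations between libraries, across 10625 genes with a mean of at least 1, ran from 0.876 to 0.906. Genes are not independent replicates, and no pair of libraries held identical values. Library 11 was high in immediate early genes, library 16 in globin, B-lineage and Xist transcripts, and library 10 in MHC class II transcripts, and library 29 was low in neutrophil transcripts. For several of the genes concerned, the coefficient of variation without that library is given below. The barcode sets also differed at the low end: 10007 and 9455 entries were listed at 0 in libraries 10 and 16, but 4489 and 3211 in libraries 11 and 29. Values above 0 but under 0.05 numbered 1056 and 1188 in the first pair and 5707 and 7137 in the second.

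All 6 genes that mark early ILC precursors were present in all 4 libraries. Id2 (chromosome 12, 25093799 to 25096092, mm10) had the highest level, with FPKM values of 1697, 1155, 1419.7 and 1124, and a mean of 1349 ± 267 (SD, n = 4). It ranked 15th of 23358 gene symbols by mean FPKM. Il7r, the interleukin 7 receptor alpha chain, was at 363, 276, 243 and 257, and ranked 111th. Its values in libraries 11, 16 and 29 lay close together and library 10 was higher.

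Tcf7 was at 279.8, 217, 214 and 156 and Gata3 at 112, 128, 108 and 169.8, so that library 10 was highest for the first and library 29 for the second. Tox (chromosome 4, 6687386 to 6990723) was at 107, 119, 123 and 92.4, with a mean of 110.2 ± 13.8 (SD, n = 4). Zbtb16 was the lowest of the 6, at 33.7, 19.0, 17.0 and 22.6. The coefficient of variation (SD divided by mean) was 0.125 for Tox, 0.190 for Il7r, 0.198 for Id2, 0.219 for Gata3, 0.233 for Tcf7 and 0.322 for Zbtb16. With all 4 libraries Tox thus had the smallest spread and Zbtb16 the largest, but this order changed without library 10. Without library 10, the coefficient was 0.0647 for Il7r, 0.132 for Id2, 0.144 for Zbtb16, 0.149 for Tox and 0.234 for Gata3, so that Il7r was the smallest and Gata3 the largest. Without library 29, it was 0.0743 for Tox and 0.0920 for Gata3.

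**Figure D1:**
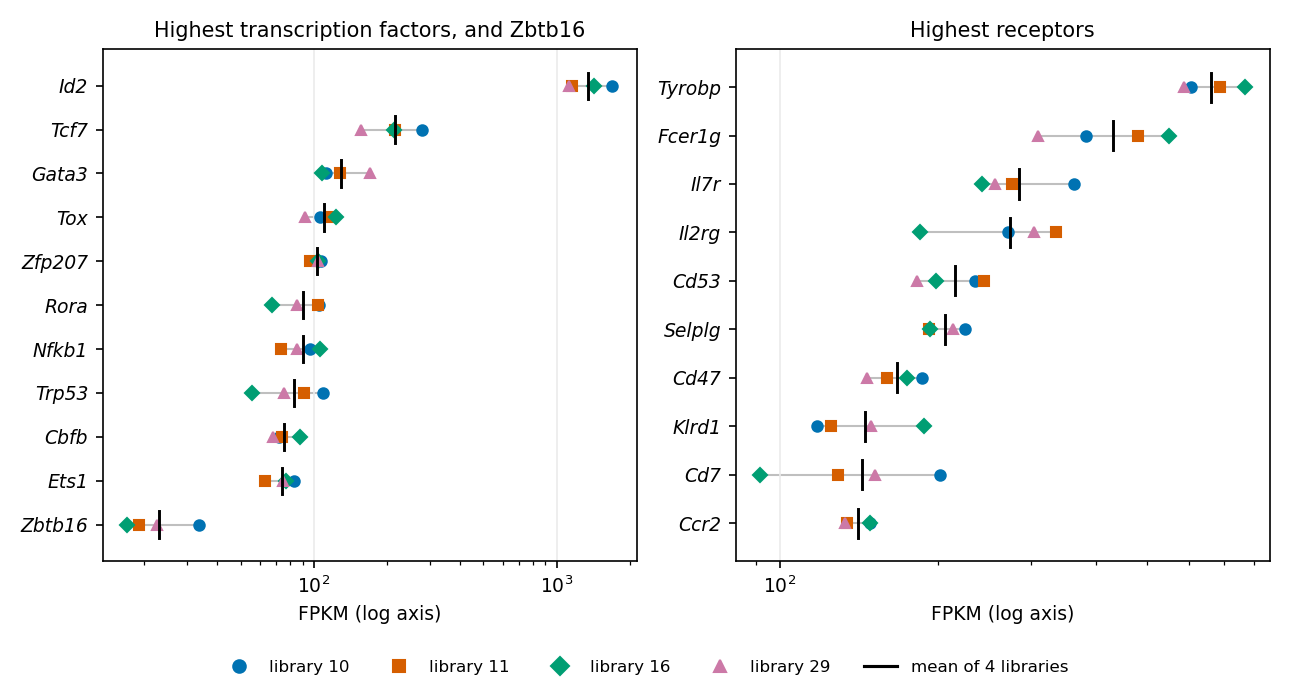
FPKM on a log axis for the 10 transcription factors with the highest mean and Zbtb16 (left) and for the 10 receptors with the highest mean (right). Each point is 1 wild-type library and the black bar is the mean of the 4; Id2 lies between 1124 and 1697, apart from every other factor, and Zfp207 points overlap near 103.

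The markers of the more mature ILC paths were at unequal levels. Of the ILC2 list, 10 of 12 members had a mean of at least 1, against 45.5% of all genes. The list was led by Icos, a costimulatory receptor (187, 119, 84.1 and 133), Arg1, which encodes arginase 1 (79.5, 87.6, 114.8 and 101.3), and Rora (105.0, 104.3, 67.3 and 85.6). The ILC2 cytokines Il5 and Il13 had means of 2.76 and 1.33. Il17a, Il22 and Il23r of the ILC3 list had means of 0.0011, 0.0013 and 0.025. Of the NK and ILC1 list, Nkg7, a granule membrane protein, had a mean of 491 ± 64.3 and Eomes of 21.8 ± 6.90, but Tbx21, which encodes T-bet, of 1.34, Ifng of 0.238 and Prf1 of 0.168. These lists were described by level only and name no cell type for the libraries.

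**Figure D2:**
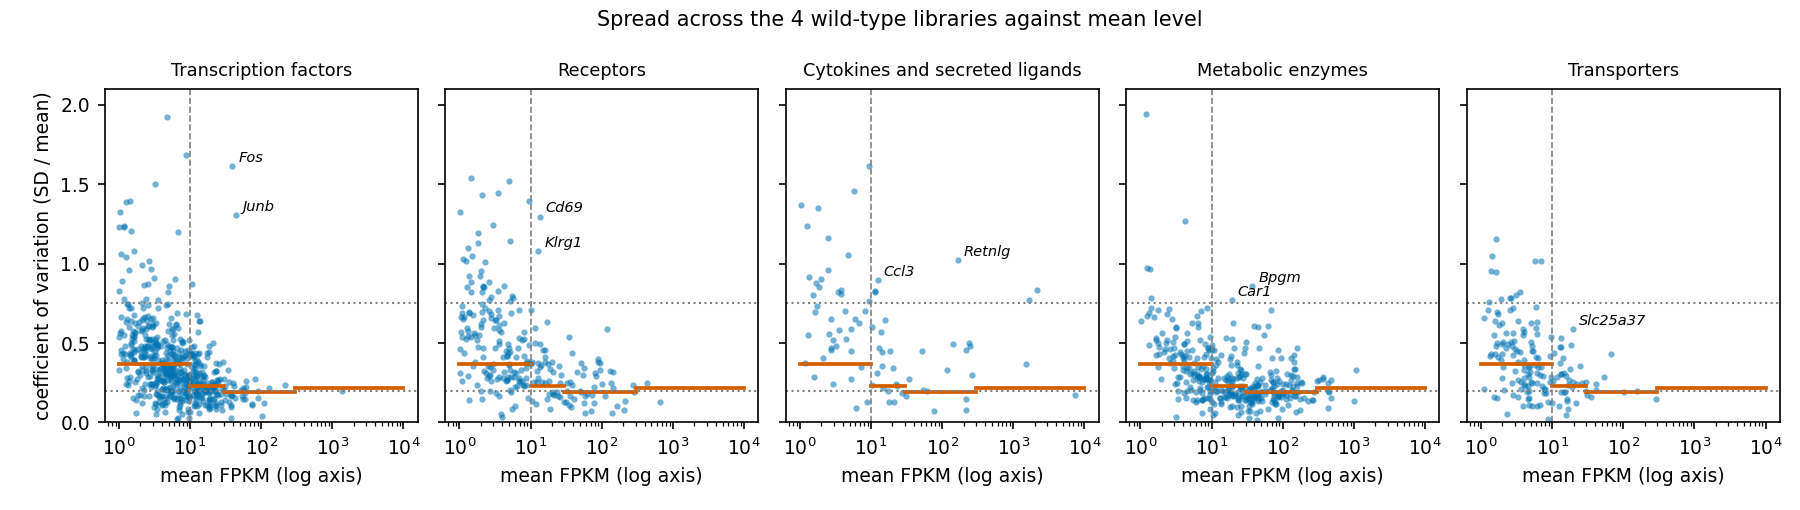
Coefficient of variation across the 4 wild-type libraries against mean FPKM (log axis) for genes with a mean of at least 1, by class. Orange lines are the median coefficient of all genes in each range of level; dotted lines mark the coefficients of 0.2 and 0.75 and the dashed line a mean of 10, and ligands hold the largest share of points above 0.75.

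Constancy was counted among genes with a mean of 10 FPKM or more, since spread was larger at lower levels. The median coefficient of variation was 0.368 at means of 1 to 10, 0.229 at 10 to 30, 0.193 at 30 to 100, 0.189 at 100 to 300 and 0.216 above. A gene was called constant at a coefficient of at most 0.2 and variable at 0.75 or more. By these limits 2118 of 4686 genes (45.2%) were constant and 84 (1.79%) were variable. A coefficient of 0.2 from 4 values has a 95% chi-square interval of 0.113 to 0.746, so single genes near the limit are not separated by it.

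Of the 5 classes, ligands had the lowest share of constant genes and the highest share of variable ones. Constant genes made up 74 of 175 transcription factors (42.3%), 34 of 88 receptors (38.6%), 110 of 233 metabolic enzymes (47.2%), 15 of 43 transporters (34.9%) and 10 of 39 cytokines and other ligands (25.6%). Variable genes numbered 3 transcription factors, 2 receptors, 2 metabolic enzymes and no transporters, but 6 ligands (15.4%). These shares are descriptions, with no test of the difference from all genes. The 6 variable ligands were S100a8, S100a9, Retnlg, Ccl3, Ccl6 and Xcl1. S100a8 and S100a9 are also in the neutrophil list. Without library 29, the coefficients of S100a8, S100a9, Retnlg and Ccl6 were 0.519, 0.400, 0.727 and 0.456. Without library 11, those of Ccl3 and Xcl1 were 0.351 and 0.206, and their means of 6.92 and 6.60 were under the filter. Variable ligands then numbered 3 of 37 (8.11%) without library 29 and 4 of 35 (11.4%) without library 11.

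Of 944 transcription factors measured, 560 had a mean of at least 1 (59.3%, against 45.5% of all genes). A mean of at least 10 was reached by 175 and of at least 100 by 5. Those 5 were Id2, Tcf7, Gata3, Tox and Zfp207, a zinc finger protein that binds spindle microtubules, with a mean of 103. Rora followed at 90.6, then Nfkb1, the p105/p50 subunit of NF-kB, at 90.1, and Trp53, which encodes p53, at 82.9. Cbfb, the partner subunit of RUNX proteins, had a mean of 75.5 and Ets1, an ETS factor of lymphocytes, of 74.3. The same 10 genes were the highest in each set of 3 libraries and by the median.

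Members of the same family stood at unequal levels. Id2 was far above Id3, the other Id protein of lymphocytes, which was at 5.32, 1.98, 18.5 and 1.10. The E proteins that Id proteins bind were present, Tcf12 at 23.5 ± 4.19 and Tcf3 at 19.6 ± 3.88 (SD, n = 4). Of the HMG-box factors Tcf7 and Tox were followed by Hbp1 at 35.8, Lef1, the relative of TCF-1, at 28.5, and Sox4 at 22.9. Of the nuclear receptors Rora was followed by Rxrg, the retinoid X receptor gamma, at 56.2. The Ikaros family members Ikzf1 (57.7) and Ikzf2 (39.5) followed Gata3 among the GATA, Ikaros, BTB, KLF, GFI and EGR zinc finger factors. Id3, Tcf3, Tcf12, Lef1 and Sox4 were picked after their values were seen.

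ETS, RUNX and Myb factors, which act at the enhancers of blood cells, had the lowest median coefficient of the 9 families of transcription factors. Of 12 with a mean of at least 10, 10 were constant (83.3%), against 45.2% of all genes and 42.3% of transcription factors at that level. Their median coefficient was 0.153, against 0.214 for all genes. Runx3 was at 20.4, 23.2, 24.9 and 23.6, and Ets1 at 82.8, 62.9, 77.1 and 74.4. The 2 that were not constant were Myb, at 0.202, and Gabpa, at 0.370. The AP-1, CREB, C/EBP, MAF and PAR factors had the highest median coefficient, 0.263, with 6 of 22 constant (27.3%).

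The most constant single factors were Zfp706, a small zinc finger protein, with FPKM values of 38.6, 36.3, 38.2 and 36.7, and Zfp207, at 106.7, 96.9, 104.0 and 104.0. Zfp445, which protects imprinted genes, and Sp4, an Sp family activator, followed with coefficients of 0.0598 and 0.0659. The most variable were Fos and Junb, the AP-1 subunits, then Zfp87 and Zfp672, zinc finger genes with coefficients of 0.871 and 0.678. Zfp87 was high in library 10 (22.8) and Zfp672 low there (2.90), so the highest and lowest library differed between them. The mean of Fos was 7.62 without library 11 and that of Zfp87 was 6.49 without library 10, both under the filter of 10.

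Fos and Junb belong to the immediate early genes, which signalling switches on within minutes through factors already present in the cell, and these were high in library 11. Fos was at 7.37, 135, 9.36 and 6.14, and Junb at 20.7, 130.4, 7.37 and 18.6. Zfp36, which encodes the mRNA-decay protein tristetraprolin, was at 32.4, 215, 20.8 and 31.7, and Dusp1, a MAP kinase phosphatase, at 13.5, 113, 14.7 and 11.2. Library 11 was the highest for 8 of the 9 list members with a mean of at least 10, against 19.7% of all genes at that level. That mean includes library 11, so a high value there helps a gene pass. Fos passed only through library 11, with a mean of 7.62 without it. The exception was Btg2, an antiproliferative gene, at 32.7, 37.0, 39.7 and 31.6.

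The list took 0.288% of summed FPKM in library 11 and 0.0446 to 0.0624% in the others. Cd69, an early activation antigen, was at 4.55, 39.3, 3.24 and 6.40, and the chemokines Ccl3 and Xcl1 were also highest in library 11, at 28.7 and 24.9. Without library 11 none of the 9 genes was variable, against 5 with it, and the coefficient of Fos was 0.213 in place of 1.61. It was 0.336 for Cd69, 0.351 for Ccl3 and 0.206 for Xcl1. What set library 11 apart was not tested.

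The promoters of these genes are shown because the list moved together in 1 library. RefSeq (GRCm38.p6, the same build as mm10) gave a promoter for 14 of the 16 list genes. The stretch shown is the 250 bases before each gene's start, 5′ to 3′ on the gene's strand, and capitals mark TGACG, the core of the cAMP response element (CRE), read on either strand, or the full element TGACGTCA, which holds TGACG on both strands. Fos lies at chr12:85473640-85473889 on the plus strand, Junb at chr8:84978749-84978998 on the minus strand and Dusp1 at chr17:26508473-26508722 on the minus strand.
Fos: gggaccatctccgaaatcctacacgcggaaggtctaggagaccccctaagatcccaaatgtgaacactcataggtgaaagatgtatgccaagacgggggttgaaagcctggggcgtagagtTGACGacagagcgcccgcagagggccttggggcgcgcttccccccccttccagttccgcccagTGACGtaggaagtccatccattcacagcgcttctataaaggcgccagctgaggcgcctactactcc
Junb: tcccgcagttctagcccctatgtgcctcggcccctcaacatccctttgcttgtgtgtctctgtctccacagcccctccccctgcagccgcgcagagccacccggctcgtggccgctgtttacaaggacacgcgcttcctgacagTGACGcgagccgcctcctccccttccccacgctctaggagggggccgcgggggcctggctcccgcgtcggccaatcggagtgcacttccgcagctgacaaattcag
Dusp1: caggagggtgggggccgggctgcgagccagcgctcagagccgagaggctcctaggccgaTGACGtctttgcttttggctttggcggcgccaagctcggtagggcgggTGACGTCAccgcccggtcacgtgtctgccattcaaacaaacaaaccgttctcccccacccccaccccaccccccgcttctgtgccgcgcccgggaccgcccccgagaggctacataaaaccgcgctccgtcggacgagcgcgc

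A TGACG core was found in the 250 bases of 8 of the 14 genes, Atf3, Btg2, Dusp1, Egr2, Fos, Fosb, Junb and Nr4a1, and in 10 of their 18 promoters. Of all 32851 promoters in the table, 17.8% held it. The full element was found for Btg2 and Dusp1, and in 1.55% of all promoters. The TATA box letters TATAAA were found for Fos and in 12.4% of all. The CArG box, the serum response factor motif, was found for Egr2 and Zfp36, in 5 of the 18 promoters, and in 1.47% of all. Atf3, Btg2 and Egr2 held the core and were not highest in library 11, with Egr2 at a mean of 0.042, and Zfp36, highest there, held no TGACG in this window. A match is a description of letters and no site of binding.

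Receptors led with the signalling adaptor Tyrobp (DAP12), at 606, 688, 769 and 587, and the Fc receptor gamma chain Fcer1g, at 383, 479.7, 550.4 and 310.2. Both pair with activating receptors that lack a signalling tail of their own. Il7r and the common gamma chain Il2rg, with means of 285 and 274, came next, so that the mRNAs of both chains of the interleukin 7 receptor stood at similar levels. Of 591 receptor genes measured, 243 had a mean of at least 1 (41.1%, against 45.5% of all genes) and 15 of at least 100. Cd53, a tetraspanin of leukocytes, Selplg, the P-selectin ligand, and Cd47, which signals against engulfment, had means of 215, 206 and 167. Klrd1 (CD94, 145), Cd7 (143) and the chemokine receptor Ccr2 (141) completed the 10 highest.

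Cd27, a TNF receptor family member of lymphocytes, was the most constant receptor, at 55.3, 61.0, 55.9 and 62.1. Ccr2, a chemokine receptor that brings monocytes out of the marrow, followed at 148, 134, 148 and 133. Crlf3 and Selplg had coefficients of 0.0714 and 0.0798. The most variable were Cd69, described above, and Klrg1, an inhibitory lectin of mature ILC2 and NK cells, at 1.53, 9.92, 33.0 and 6.92. Klrg1 was highest in library 16, without which its coefficient was 0.694 and its mean 6.13. The mean of Cd69 without library 11 was 4.73. Both receptors thus passed the filter of a mean of 10 only through the library where they were high. Lilrb4 and P2rx7, an inhibitory immunoglobulin-like receptor and an ATP-gated channel, were at 0.705 and 0.632.

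Partner chains of the same receptor were often at unequal levels; these pairs were picked after their values were seen. Il1rl1, the specific chain of the interleukin 33 receptor, was at 15.7, 48.3, 21.6 and 52.5, and its partner Il1rap had a mean of 2.65. The 2 libraries of the higher barcode set were both above the other 2 for Il1rl1. Il17rb, the interleukin 25-binding chain, had a mean of 79.6 ± 24.9 (SD, n = 4) against 8.64 ± 2.05 for its partner Il17ra. Il18r1 was at 56.9 ± 7.03 and Il18rap at 4.79 ± 2.38. In each of these 3 pairs the ligand-binding chain was the higher in every library. This did not hold for all receptors. Il4ra, of the interleukin 4 receptor, had a mean of 3.37 against 274 for its partner Il2rg. Il10ra, of the interleukin 10 receptor, had a mean of 7.04 against 9.26 for Il10rb. Both were the lower chain in every library. For the interferon gamma receptor, Ifngr1 (45.3) was above Ifngr2 (5.85).

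Klrd1 was at 118, 125, 188 and 149, while the NKG2 chains with which it pairs in NK cells, Klrc1 and Klrc2, had means of 0.311 and 0.359. The integrin chains Itga4 and Itgb7, which form the gut-homing integrin α4β7 of ILC precursors, had means of 83.8 ± 24.7 and 54.9 ± 16.3 (SD, n = 4). The inhibitory receptor Pdcd1 (PD-1) was at 138, 58.5, 78.6 and 83.2 and the chemokine receptor Cxcr6 at 111.5, 94.4, 69.0 and 125. Kit, the stem cell factor receptor, was at 25.8 ± 4.10 and Flt3, a receptor of earlier progenitors, at 1.53 ± 0.548.

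**Figure D3:**
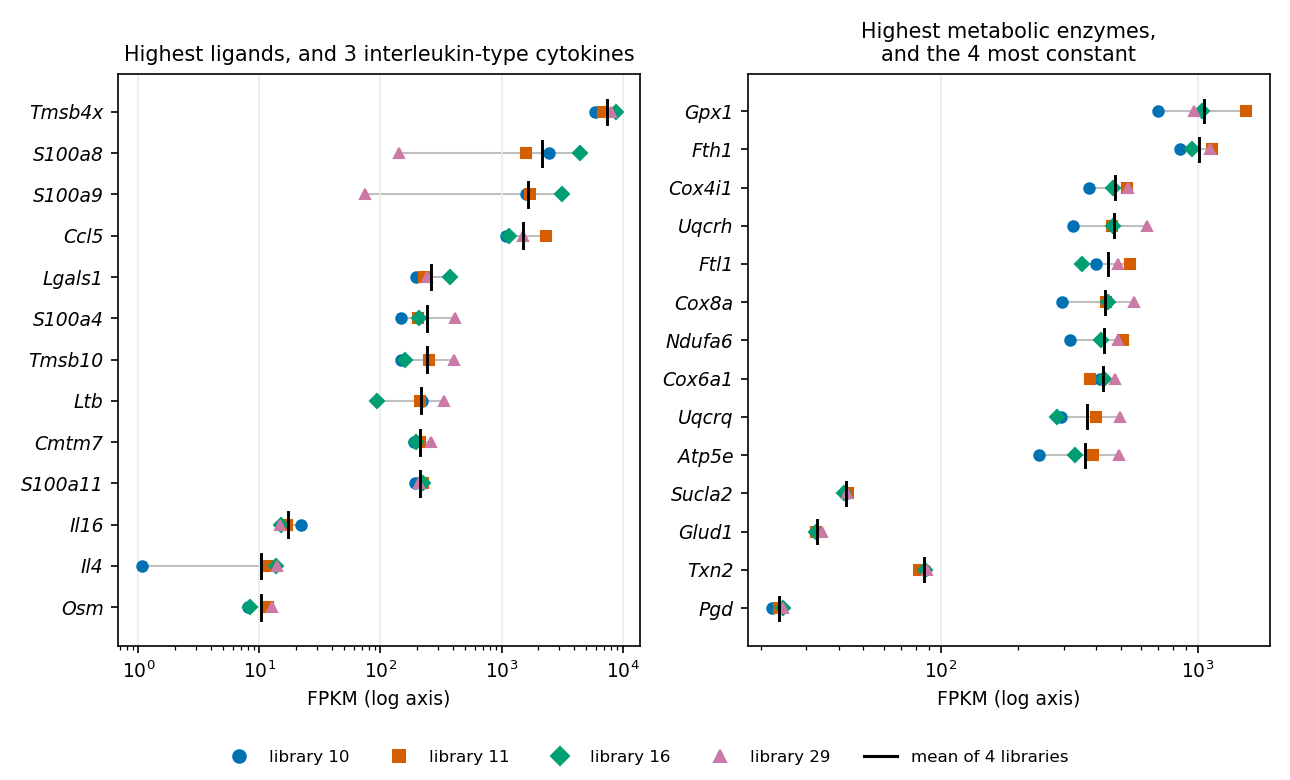
FPKM on a log axis for the 10 ligands with the highest mean with Il16, Il4 and Osm (left) and for the 10 metabolic enzymes with the highest mean with the 4 of lowest coefficient of variation (right). Each point is 1 wild-type library and the black bar is the mean; S100a8 and S100a9 are low in library 29 and Il4 in library 10, and the points of Sucla2, Glud1, Txn2 and Pgd overlap.

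The leaders of the list of cytokines and secreted ligands were not all cytokines. Tmsb4x, the actin-binding thymosin beta 4, was at 5893, 6883, 8829.5 and 7940.3, and ranked 2nd of all genes. S100a8 and S100a9, the calprotectin subunits of neutrophils, followed with means of 2149 and 1640.4. Of 309 list members, 81 had a mean of at least 1 (26.2%, against 45.5% of all genes). S100a11, a calcium-binding protein, and Hmgb1, a chromatin protein released from dying cells, were the most constant, with coefficients of 0.0760 and 0.0720.

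Ccl5 (RANTES), a chemokine of lymphocytes, followed the S100 genes, at 1096, 2309, 1145 and 1512. It ranked 13th of all genes, and its coefficient was 0.370, or 0.182 without library 11. Ltb, which encodes lymphotoxin beta, was at 221, 214, 94.1 and 334, lowest in library 16 and highest in library 29. The next members of the TNF family were Tnfsf14 (LIGHT) at 14.4 and Lta, which forms heterotrimers with lymphotoxin beta, at 8.77 ± 1.13 (SD, n = 4).

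Interleukin mRNAs were low. The highest were Il16 at 17.3 ± 3.38, Il4 at 10.3 ± 6.19 and Osm, which encodes oncostatin M of the interleukin 6 family, at 10.3 ± 2.39 (SD, n = 4). Il4 was at 1.07 in library 10 and at 12.1, 13.8 and 14.1 in the others, and without library 10 its coefficient was 0.0820 in place of 0.603. Of the 62 interleukin and interferon genes measured, 14 had a mean of at least 1 (22.6%, against 45.5% of all genes). Another 14 were listed at 0 in all 4 libraries. Among growth factors, Fgf15 (17.7) and Angpt1 (20.7), the ligand of Tie2, were the constant ligands after Hmgb1 and S100a11, with coefficients of 0.127 and 0.128.

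Metabolic enzymes were the class most often present, with 369 of 432 (85.4%) at a mean of at least 1, against 45.5% of all genes. Gpx1, the peroxide-reducing glutathione peroxidase 1, led with FPKM values of 695, 1536, 1033 and 968, and the ferritin heavy chain Fth1 followed at 853, 1131, 945 and 1110.3. The other 8 of the highest 10 were the ferritin light chain Ftl1 and 7 subunits of the respiratory chain and ATP synthase, Cox4i1, Uqcrh, Cox8a, Ndufa6, Cox6a1, Uqcrq and Atp5e, with means of 364 to 477. The 81 oxidative phosphorylation genes took 2.57 to 3.55% of summed FPKM, and the 32 glycolysis genes 0.190 to 0.269%. These shares depend on the size of each list. Among members with a mean of at least 10, 72 and 12 genes, the median level was 101.6 and 38.7.

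Glycolysis was led by Aldoa, Ldha and Pkm, which encode aldolase A, lactate dehydrogenase A and pyruvate kinase M, with means of 179, 139 and 80.3. The glucose transporters Slc2a1 and Slc2a3 had means of 4.01 and 4.71, and the hexokinases Hk1 and Hk2 of 9.07 and 6.23. Arg1 had a mean of 95.8 ± 15.6 (SD, n = 4) and a coefficient of 0.162, and its isoenzyme gene Arg2 of 0.073. The lactate dehydrogenase B gene Ldhb was at 18.4 ± 1.79.

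The 4 most constant enzymes ranked 3rd, 13th, 15th and 58th by coefficient of variation among the 4686 genes with a mean of at least 10. Sucla2, a subunit of succinyl-CoA ligase, was at 43.1, 43.5, 42.1 and 43.1, and Glud1, glutamate dehydrogenase, at 32.5, 32.8, 32.6 and 34.5. Txn2, mitochondrial thioredoxin, was at 87.0, 82.4, 86.5 and 88.4, and Pgd, of the cytosolic pentose phosphate pathway, at 22.0, 23.6, 24.4 and 24.3. Of the pyruvate and citrate cycle genes with a mean of at least 10, 17 of 24 were constant, against 47.2% of metabolic enzymes and 45.2% of all genes, as were all 4 of the serine, glycine and one-carbon genes at that level, Shmt2, Psat1, Psph and Phgdh.

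The most variable enzymes included genes known from red cells and myeloid cells. Bpgm, which makes 2,3-bisphosphoglycerate in red cells, was at 25.7, 21.4, 84.3 and 16.6, and Fech, the last enzyme of heme synthesis, at 15.2, 11.6, 38.2 and 14.2. Both were highest in library 16, and without it their coefficients were 0.214 and 0.134 in place of 0.859 and 0.624. Alox5ap, the 5-lipoxygenase activating protein of myeloid cells, was at 58.5, 53.7, 136 and 23.0, with a coefficient of 0.708, or 0.427 without library 16. Car1, a carbonic anhydrase and a marker of the erythroid list, was at 37.1, 8.46, 5.92 and 24.9. It was lowest in library 16, an order unlike that of Bpgm.

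Transporters were led by carriers of the inner mitochondrial membrane. Slc25a5, the ADP/ATP carrier 2, was at 306, 341, 251 and 254, Slc25a3, the phosphate carrier, had a mean of 157 and Slc25a4, the ADP/ATP carrier 1, of 103. At the plasma membrane, Slc38a2 and Slc1a5, which bring in neutral amino acids and glutamine, had means of 54.0 and 41.4. The glutamine transporter Slc38a1 was the most constant transporter, at 15.6, 14.5, 16.2 and 15.7. Slc3a2, the heavy chain of amino acid exchangers, was at 21.9 ± 2.67 (SD, n = 4), and its partner Slc7a5 at 2.85 ± 1.21. Slc25a37, the mitochondrial iron importer of erythroid cells, was the most variable at 15.1, 11.6, 36.3 and 14.4, or 0.134 without library 16.

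**Figure D4:**
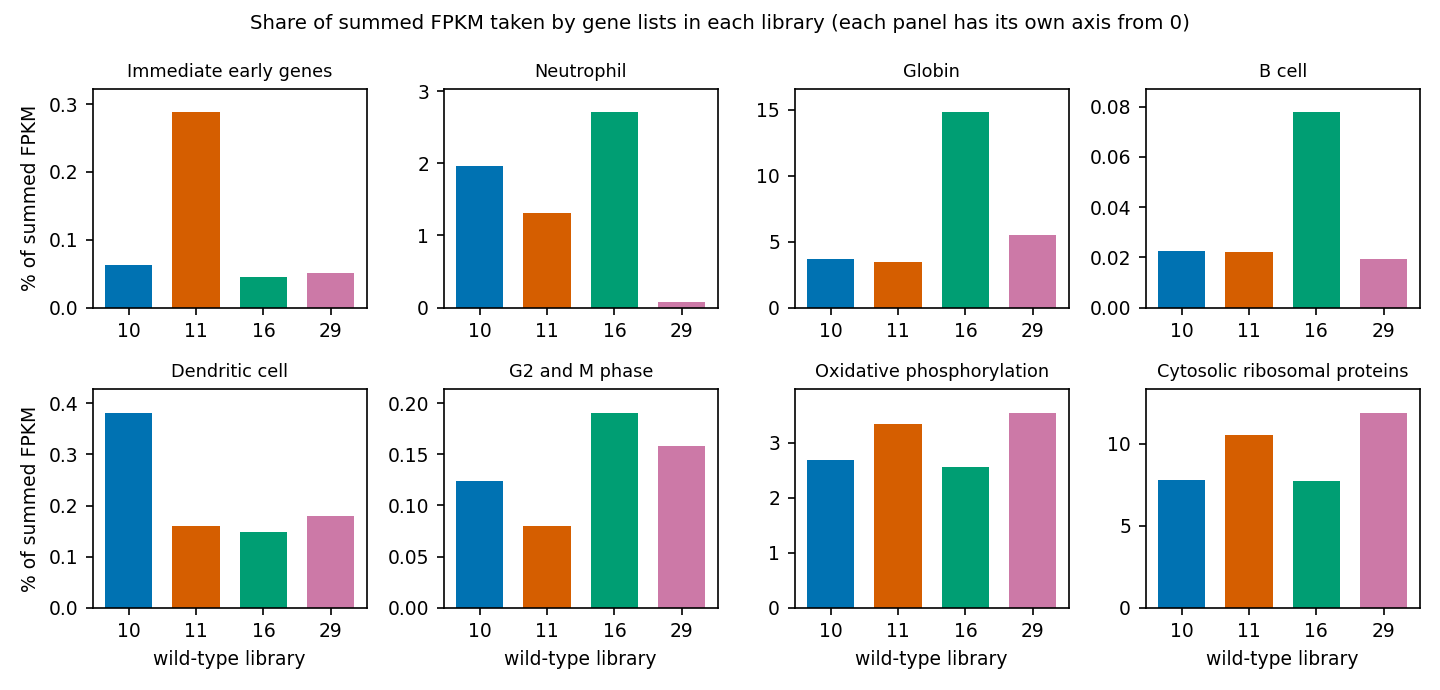
Percent of summed FPKM taken by 8 gene lists in each wild-type library; each panel has its own axis, which starts at 0. Immediate early genes are high in library 11, neutrophil genes low in library 29, globin and B cell genes high in library 16 and the dendritic cell list, with MHC class II, high in library 10.

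Transcripts of other marrow cells were present in all libraries and in unequal amounts. The neutrophil list took 1.96, 1.32, 2.71 and 0.0815% of summed FPKM. All 11 of its members with a mean of at least 10 were variable and lowest in library 29. Of all 4686 genes at that level, 1.79% were variable and 972 were lowest in library 29. S100a8 was at 2445, 1578, 4432 and 142, and Lyz2, lysozyme of myeloid cells, at 399, 107, 509 and 3.22. Without library 29, 3 neutrophil genes were variable and the coefficient of S100a8 was 0.519 in place of 0.835.

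Globin genes took 3.67, 3.42, 14.8 and 5.52%. Hba-a1 was at 3007, 3151, 14613 and 5348, and Hbb-b2 at 1535, 1002, 7984 and 1887. Globin genes have near-identical copies, so that the share of each copy is uncertain. Without library 16 the coefficient of variation was 0.342 for Hba-a1 in place of 0.841, and 0.302 for Hbb-b2 in place of 1.06. Library 16 was also the highest in B-lineage genes, with Igll1, part of the surrogate light chain of pro-B cells, at 0, 0.352, 28.5 and 0.016. It alone held Xist, at 34.6 against at most 0.056 elsewhere, and its Y-linked transcripts were at most 0.047. The libraries thus did not all come from mice of 1 sex. In bulk libraries more cells of a type and more RNA per cell cannot be told apart, and the part of these lists in the spread of ILC genes was not tested.

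**Figure D5:**
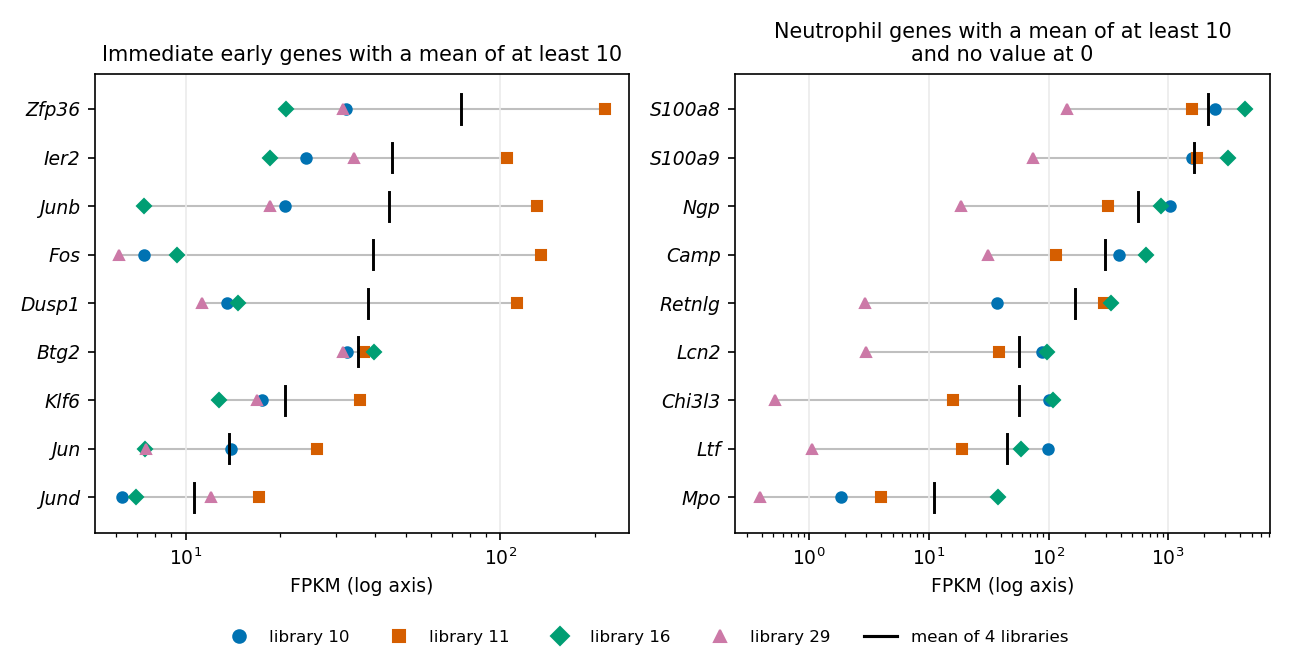
FPKM on a log axis for immediate early genes (left) and for neutrophil genes without a value at 0 (right), both with a mean of at least 10. Points are the 4 wild-type libraries and bars the mean; library 11 lies to the right for all immediate early genes except Btg2, and library 29 to the left for all neutrophil genes shown.

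Of the dendritic cell list, the MHC class II gene H2-Aa was at 335, 104.7, 160.1 and 134 and Cd74, the invariant chain, at 441, 222, 152 and 271, highest in library 10. Without it their coefficients were 0.208 and 0.279 in place of 0.563 and 0.453. Of the 12 members of that list, 9 had a mean of at least 1 and 7 of at least 10, against 10625 and 4686 of all 23358 symbols. Clec9a and Siglech, genes of dendritic cell subsets, were among the low members, with means of 0.0022 and 0.446. Of the T cell list, Lat and Lck, which encode signalling proteins of T and NK cells, had means of 59.9 and 51.7, while Cd3e, Cd4, Cd8a and Rag1 were at 1.03, 0.0062, 0.312 and 0.178. Other lists were mixed in the same way. Pax5 of B cells was at 0.030 but Cd79b, a B cell receptor chain, at 56.3 (35.1 to 82.2). Cd14 of monocytes was at 0.0013 but Ly6c2 at 54.5 and Ctss, cathepsin S, at 43.1. Fcer1a of basophils was at 0.022 but Cpa3, the mast cell carboxypeptidase, at 133 (73.3 to 226). Gzmb, a cytotoxic granule protease, was at 13.1, 49.3, 0 and 0.

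Genes of the G2 and M phases also differed in level between libraries. Of 15 G2 and M phase genes with a mean of at least 10, 13 were lowest in library 11 and 11 highest in library 16, and none was constant. Of all 4686 genes at that level, 1005 were lowest in library 11, 22.9% were highest in library 16 and 45.2% were constant. Of 15 S phase genes at that level, 7 were highest in library 29, 6 in library 16 and 8 lowest in library 11. Of these 15, 4 were constant, and the median coefficient was 0.224 against 0.214 for all genes. Birc5 (survivin) was at 54.0, 26.6, 116 and 73.6, and Mki67, the Ki-67 antigen, at 15.4, 13.1, 30.02 and 17.6.

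Oxidative phosphorylation and ribosomal protein genes, both with short transcripts, were mostly higher in the higher barcode set, by mean in 62 of 72 and 75 of 82, against 2681 of all 4686 genes with a mean of at least 10. Of 72 oxidative phosphorylation genes, 47 were highest in library 29 and 47 were lowest in library 10, where 1389 of the 4686 were lowest. Of 82 ribosomal protein genes, 64 were highest in library 29 (78.0%), against 36.3% of all genes with a mean of at least 10. The median longest transcript was 1046 bases for the first list, 1076.5 for the second and 2699 for all genes. The median difference between barcode sets, the higher minus the lower, was 0.40 on the log2(FPKM + 1) scale for the oxidative phosphorylation list and 0.43 for the ribosomal list. Over all genes it was 0.41 for those whose longest transcript was under 800 bases, 0.14 at 800 to 1500 bases, 0.05 at 1500 to 3000 and 0.04 at 3000 or more. By longest annotated transcript, which need not be the one expressed, the medians of both lists lie in the range of 800 to 1500 bases. The part of transcript length in these differences was not tested.

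Tested gene by gene across 10668 entries with limma, the barcode sets differed for 1, Snord12, a small nucleolar RNA gene listed at a mean of 104 in the lower set and 0 in the higher (adjusted p = 2.90e-04). This was 0.00937% called lower in the higher set, and 0% were called higher. Unadjusted p-values under 0.05 were found for 720 entries. With 2 libraries in each set, and 0 to 9 entries called when 1 library was left out, this test sets a weak limit on batch differences.

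The highest value of the whole table was that of Mir703, a microRNA gene of 109 bp (chromosome 5, 98475556 to 98475664), at 29011, 19883, 34477 and 22874. FPKM divides by length, so a short locus reaches a high value from few fragments, and the gene took 6.33 to 9.78% of summed FPKM. The mature miR-703 in RefSeq has the sequence below, with its seed, bases 2 to 8, in capitals.
miR-703: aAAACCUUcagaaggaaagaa
Which RNA gave these fragments was not tested. After Mir703 the highest values were those of Tmsb4x, globin genes, B2m, the MHC class I light chain, and Rpl41, Rpl32 and Eef1a1 of the translation machinery. Among the 100 highest symbols 27 encoded ribosomal proteins, 11 metabolic enzymes, 4 ligands, 2 receptors and 1 transcription factor, Id2.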

How the data were processed

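Gene expression was measured in 4 wild-type libraries of sorted mouse marrow cells. Per the labels' protocols, total RNA was copied with a SMARTer kit for low input, and Ion Xpress libraries were read on an Ion Proton. The authors deposited FPKM values per gene, made with Cufflinks on mm10, per the submitters' processing notes. For the aligner, the gene annotation and the Cufflinks version, the sources used here give nothing. Read counts are not part of the table, and the absolute depth is unknown. From the steps between low values, library 16 was estimated at 0.830 times the depth of library 10, with 103 of 774 low genes at the common step. For library 11 against library 29 the same estimate was 0.795. It rests on 103 of 5618 low genes, too small a share to show a clear step, so this ratio is uncertain.

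Values were used as deposited. Of 23846 entries, 744 shared a symbol with another, and each symbol was represented by its highest entry. Symbols that read as dates (27 entries) were left as they are. The columns carry no title replicate number and were assigned to their group only. Printed starts count from 0, and coordinates are given counted from 1.

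For each gene the mean, SD, coefficient of variation and rank of mean FPKM were computed with pandas 2.3.3 in Python 3.11.15. The 2 barcode sets within wild type were compared on log2(FPKM + 1) for entries with a mean of at least 1, with limma 3.58.1 in R 4.3.3 and Benjamini-Hochberg adjustment at 0.05, after the script was checked on simulated data. The members and lists were chosen with earlier results of these data known, and lists were corrected for misassigned symbols after values were seen. Named genes were the 6 markers, the 10 highest of all genes, and per class the 10 highest means and the 4 lowest and 4 highest coefficients of variation at a mean of at least 10. To these were added the 3 highest of each family, up to 4 of each cell type list with its defining genes, and genes that differed between barcode sets. Members of the immediate early, cell cycle, sex-linked and ribosomal lists and receptor partner chains were picked after their values were seen. Alternatives covered scaling between libraries, the filter on low values, thresholds, the pseudocount, entries that share a symbol and each library left out. Some genes that this rule takes are not reported here.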

Additional observations from a re-analysis of the deposited data

Results flagged for a closer look

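In 15 of 178 named genes at a mean of 10 FPKM or more, and in 3 of 20 lists of cell types and states, 1 library lay far from the other 3, with a gap to its nearest neighbour of over 0.829 of the whole range. Chance gives about 1 in 20 such groups. Over all 4686 genes with a mean of at least 10 the share was 6.17%. The 178 named genes include, by rule, the 4 highest coefficients of variation of each class. Fos, Junb, Cd69, Bpgm, Fech and Slc25a37 are among those picks and were flagged. The share of named genes therefore cannot be compared with chance or with all genes.

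In library 16, some genes of red cells stood apart on the high side: Hbb-b2 at 7984 against 1002 to 1887, Bpgm at 84.3 against 16.6 to 25.7, Fech at 38.2 against 11.6 to 15.2 and Slc25a37 at 36.3 against 11.6 to 15.1. Car1, also a red cell marker, did not stand apart by this rule and was lowest in library 16, at 5.92 against 8.46 to 37.1. Hprt, the purine salvage enzyme, was at 139 there and at 99.7 to 103 in the others. The B cell list took 0.0777% of summed FPKM in library 16 and 0.0194 to 0.0226% elsewhere.

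In library 11, Fos at 135, Junb at 130.4 and Cd69 at 39.3 were high, as was the immediate early list at 0.288% of summed FPKM. Slc44a2, a choline transporter, was low there, at 22.7 against 32.0 to 33.8.

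In library 29, Eomes was at 32.1 against 17.5 to 19.1, Lrp10 at 26.7 against 18.3 to 19.1 and Glud1 at 34.5 against 32.5 to 32.8.

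In library 10, Tnfrsf1a, a TNF receptor, was high at 19.9 against 12.1 to 13.3, and the dendritic cell list took 0.382% of summed FPKM against 0.149 to 0.179%. Il4 was low there, at 1.07 against 12.1 to 14.1, and Prdx1, a peroxiredoxin, at 137 against 156 to 157. The causes were not tested.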

How the results depend on the processing

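No paired analysis was possible because the description stays within 1 group and the columns carry no replicate numbers of the titles.

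The means of the 6 markers moved by less than 1 SD with median-ratio scaling. With so few libraries, leaving a library out cannot move a mean by 1 SD, so this limit tests nothing there. With each library left out, the mean FPKM ran from 1233 to 1424 for Id2, 258 to 299 for Il7r and 196 to 237 for Tcf7. It ran from 116 to 137 for Gata3, 106 to 116 for Tox and 19.6 to 25.1 for Zbtb16. Of the 10 highest genes of each class, 8 to 10 stayed with median-ratio scaling, with the median in place of the mean and with each library left out. Scaling, with or without globin, neutrophil and immunoglobulin genes, and summing entries that share a symbol kept each count of constant and variable genes within 1.5 times.

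Counts moved with the filter and the thresholds, since fewer or more genes then qualify. With a mean of at least 1 in place of 10, variable genes numbered 714 of all genes, 33 transcription factors, 35 receptors, 23 ligands, 7 metabolic enzymes and 12 transporters, and constant genes 137 transcription factors and 33 transporters. With a mean of at least 50, constant genes numbered 549 of all genes, 11 transcription factors, 16 receptors, 5 ligands, 46 metabolic enzymes and 3 transporters, and variable genes 21 of all genes, 3 ligands and 0 in the transcription factors, receptors and metabolic enzymes. With a coefficient of at most 0.15, constant genes numbered 1197, 38, 18, 5, 49 and 7 in all genes, transcription factors, receptors, ligands, metabolic enzymes and transporters. With a coefficient of at least 0.5, variable genes numbered 224, 7, 7, 11 and 2 in all genes, transcription factors, receptors, metabolic enzymes and transporters. With a coefficient of at least 1 they numbered 47 in all genes, 1 ligand and 0 metabolic enzymes.

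With each library left out, constant genes ranged from 2087 to 2439 of all genes, 59 to 86 transcription factors, 31 to 38 receptors, 10 to 12 ligands, 105 to 125 metabolic enzymes and 15 to 19 transporters. Variable genes ranged from 75 to 93 of all genes, 1 to 5 transcription factors, 1 to 4 receptors, 3 to 7 ligands and 0 to 4 metabolic enzymes, with 0 transporters throughout. Genes with a mean of at least 1 ranged from 10571 to 10634.

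Leaving out libraries for single lists was added after the data were seen. Variable genes then ranged from 0 to 7 in the immediate early list, 3 to 11 in the neutrophil list and 0 to 7 in the erythroid list, lowest without libraries 11, 29 and 16.

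Between barcode sets, 2 entries were called with a pseudocount of 0.5, 0 with no filter on low values (2199 of 23846 at an unadjusted p under 0.05), and 0 to 9 with a library left out, where a lone library is assumed to vary like the other set. FPKM gives no count of fragments, so counting error at low levels is unknown, and 4 libraries leave wide intervals on each coefficient of variation.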
